A study of Drosophila melanogaster with 6 samples.

Results

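Antimicrobial peptide genes of the cecropin family (CecA1, CecA2, CecB and CecC), Defensin (Def), Drosomycin (Drs) and Metchnikowin (Mtk) were followed in the head RNA-seq of this series. The 7 genes were taken by their locus tags from the 17545 genes of the count tables, and all 7 had enough reads to be among the 12048 genes tested. They were chosen with the comparison of HSD-F1 and ND heads already known, so their own differences are given as a description, with a fold change and its standard error. Their p-values are not printed, and whether they met the call thresholds is likewise given as description only.

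Heads were compared between HSD-F1 and ND flies, which the labels tell apart by the diet of their ancestors. Per the study, the parents of HSD-F1 flies were raised on the high-sugar diet (20% sucrose) from egg to adult and then mated. The ancestors of ND flies were fed the normal diet (10% sucrose). Flies of both groups were 5 days old, were labelled with the genotype W+VDRC, and, per the study's methods, were females raised on the normal diet themselves, with heads pooled within a replicate. The study's text names Canton-S as its wild-type strain, so the strain of these heads is not settled here. Each group had 3 replicates, and the libraries held 20266352 to 26190694 counts.

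Antimicrobial peptides are small secreted proteins that the fly fat body, hemocytes and epithelia make when microbes are sensed. Their transcription is driven by NF-κB factors at the end of the Toll and Imd pathways. Imd, which acts through Relish (Rel), responds mainly to the peptidoglycan of Gram-negative bacteria, and Toll, which acts through Dif and dl, responds to fungi and many Gram-positive bacteria. Cecropins are linear helical peptides that act mostly on Gram-negative bacteria and are mainly read as Imd targets, Def acts on Gram-positive bacteria, Drs is an antifungal peptide and the classic readout of Toll, and Mtk is a proline-rich peptide that both pathways can induce.

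The fitted log2 fold change was above 0 for all 7 genes, and the summed level of the genes was 944 ± 322 CPM in HSD-F1 heads and 319 ± 120 CPM in ND heads (SD, n = 3 each), a ratio of 2.96. CPM scales each count to the size of its library, here with totals adjusted by the trimmed mean of M-values (TMM). The sum was 1077, 577 and 1178 CPM in HSD-F1 replicates 1, 2 and 3, against 186, 354 and 418 CPM in ND replicates 1, 2 and 3, and the groups did not overlap. The genes fell into a part whose groups did not overlap (CecA1, CecA2, Def, Drs and Mtk) and a part whose groups overlapped (CecB and CecC). Def lay in the middle of their order, so that 1.59 was the median of the 7 log2 fold changes, where that of all genes tested was -0.0026.

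**Figure D1:**
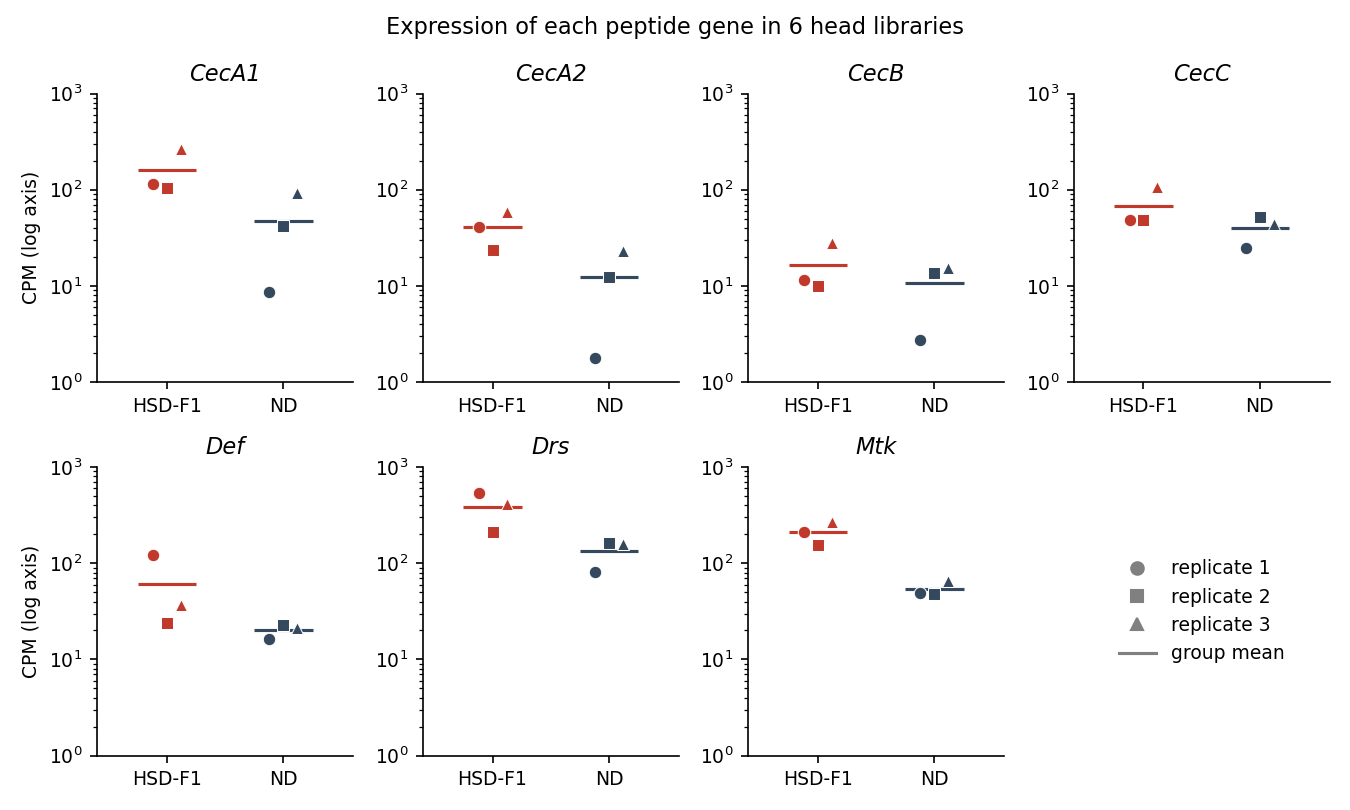
CPM of each of the 7 genes (log axis) in the 3 HSD-F1 and the 3 ND head libraries, with 1 point per library, marker shapes for the replicate number and a line at the group mean. Mtk lay at 156 to 267 CPM in HSD-F1 and 47.3 to 65.6 CPM in ND, the widest gap between groups among the 7, while the groups of CecB and CecC overlapped.

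In 5 of the 7 genes every HSD-F1 library was above every ND library, where 6.67% of all genes tested separated in that direction and 5.17% in the other. The same 5 genes met the thresholds of the study (at least 1.5-fold, with p below 0.05 before adjustment), which 1.81% of all genes tested met in either direction and 1.14% with a rise. CecA1 and CecA2 did not meet them with DESeq2, without HSD-F1 replicate 3 or without ND replicate 2, nor did CecA2 without HSD-F1 replicate 1. Mtk alone of the 7 passed after adjustment, as 0.0664% of all genes did, and it did not without ND replicate 1, ND replicate 2, HSD-F1 replicate 1 or HSD-F1 replicate 3. These shares stand beside the counts as background only, since the 7 genes were picked on this contrast. In bulk RNA of whole heads, more cells that make a peptide and more RNA per cell cannot be told apart.

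The 4 cecropin genes lie side by side in 6065 bp of chromosome 3R of Release 6 (dm6). CecA1 (Dmel_CG1365, FBgn0000276) spans 30210874 to 30211273, CecA2 (Dmel_CG1367, FBgn0000277) spans 30212156 to 30212568, and CecC (Dmel_CG1373, FBgn0000279) spans 30216484 to 30216938, each on the plus strand. CecB (Dmel_CG1878, FBgn0000278) runs on the minus strand between CecA2 and CecC, from 30213315 to 30213797. Each has 2 exons split by an intron of 58 to 69 bp and codes for 63 residues. CecA1 and CecA2 are known to encode the same mature peptide. The counts are described as made from uniquely mapped read pairs, so reads that fit more than one copy would by that account be lost. The separate levels of CecA1 and CecA2 are therefore uncertain.

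CecA1 had 115.05, 104 and 267 CPM in HSD-F1 replicates 1, 2 and 3, against 8.57, 42.5 and 92.2 CPM in ND replicates 1, 2 and 3. The groups did not overlap, but by a narrow margin, with HSD-F1 replicate 2 at 1.13 times the level of ND replicate 3. The fitted difference was 1.76 ± 0.71 on the log2 scale (standard error), and lay between 1.199 (HSD-F1 replicate 3 left out) and 2.66 (ND replicate 3 left out). ND replicate 1 stood far below the other ND libraries, and the highest ND level of CecA1 was 10.8 times the lowest. CecA2 was lower throughout, with 40.9, 23.7 and 58.9 CPM in HSD-F1, against 1.802, 12.5 and 22.8 CPM in ND, and a log2 fold change of 1.73 (standard error 0.68), which lay between 1.22 (ND replicate 1 left out) and 2.51 (ND replicate 3 left out). It had the same outlying library, with 45 counts in ND replicate 1, the smallest count of any of the 7 genes in any library. Added together, CecA1 and CecA2 reached 203 ± 107 CPM in HSD-F1 and 60.2 ± 52.5 CPM in ND (SD, n = 3 each), a ratio of 3.38 without overlap. Reads moved between the copies would cancel in this sum, but reads lost from both are not restored by it. Per kb of exon, CecA1 was 2.94 to 4.98 times as high as CecA2 in the 6 libraries.

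CecB, the cecropin with the lowest level in both groups, differed least. It had 11.5, 9.90 and 27.8 CPM in HSD-F1, against 2.76, 13.8 and 15.5 CPM in ND, so that only HSD-F1 replicate 3 was above every ND library. The log2 fold change of 0.62 for CecB was about as large as its standard error of 0.58, and was -0.0020 without HSD-F1 replicate 3. CecC had 48.5, 48.0 and 107 CPM in HSD-F1, against 24.9, 52.1 and 43.5 CPM in ND. Again HSD-F1 replicate 3 alone exceeded the ND range, and the log2 fold change of 0.75 (standard error 0.36) was 0.26 without it.

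The cecropins differed in their balance from library to library. Per kb of exon, CecA1 was 2.70, 2.47 and 2.85 times as high as CecC in HSD-F1 replicates 1, 2 and 3, against 0.39, 0.93 and 2.41 times in ND replicates 1, 2 and 3. In the ND libraries the ratio covered a wide range, whose top lay just below the lowest HSD-F1 value, and in HSD-F1 it was nearly constant. CecB stayed at 0.10 to 0.32 of the level of CecC per kb in all 6 libraries.

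Def (Dmel_CG1385, FBgn0010385), on chromosome 2R from 10054178 to 10054576 on the minus strand, is a single-exon gene of 399 bp with a coding part for 92 residues. It had 120, 24.1 and 37.1 CPM in HSD-F1 replicates 1, 2 and 3, against 16.4, 22.6 and 21.1 CPM in ND replicates 1, 2 and 3. The groups did not overlap, with HSD-F1 replicate 2 at 1.07 times the level of ND replicate 2, but HSD-F1 replicate 1 was at least 3 times as high as any other library. The log2 fold change of 1.59 (standard error 0.52) was 0.61 without this library and 1.97 without HSD-F1 replicate 2. In ND heads Def varied less than any other of the 7 genes, with a coefficient of variation of 16.2%, while in HSD-F1 heads it varied most, with 86.2%. HSD-F1 replicate 1 also had the highest sum of 7 midgut markers, which are digestive enzymes, at 57.3 CPM, and of 6 hemocyte markers, at 452 CPM. Most of this midgut sum was Amy-p, which was highest there at 42.3 CPM. Mal-A1 and Jon65Aiii, at 3.01 and 3.40 CPM there, were highest in ND replicate 1, at 5.09 and 4.24 CPM. The other libraries had midgut sums of 29.5 to 30.01 CPM in HSD-F1 and 36.7 to 46.4 CPM in ND, and hemocyte sums of 350 to 355 CPM in HSD-F1 and 353 to 403 CPM in ND. Of the midgut markers deltaTry was at 0 counts throughout, and the part of either list in the Def values was not tested.

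Drs (Dmel_CG10810, FBgn0283461), the antifungal peptide, lies on chromosome 3L from 3369556 to 3369942 on the plus strand, a single exon of 387 bp that codes for 70 residues. It was the most abundant of the 7 genes per kb of exon, at 995 ± 419 CPM per kb in HSD-F1 and 346 ± 117 CPM per kb in ND (SD, n = 3 each), and ranked 80 in HSD-F1 and 230 in ND among the 12048 genes on this scale. Its level was 531, 210.3 and 414 CPM in HSD-F1 replicates 1, 2 and 3, against 81.7, 163 and 157 CPM in ND replicates 1, 2 and 3. The groups were apart by a factor of 1.29, and the fitted difference was 1.52 ± 0.36 on the log2 scale (standard error). It ranged from 1.22 to 1.82 when 1 library was left out.

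Mtk (Dmel_CG8175, FBgn0014865), on chromosome 2R from 15408846 to 15409113 on the plus strand, is the shortest of the 7, a single exon of 268 bp that codes for 52 residues. It had 210.5, 156 and 267 CPM in HSD-F1 replicates 1, 2 and 3, against 49.4, 47.3 and 65.6 CPM in ND replicates 1, 2 and 3. The lowest HSD-F1 library was 2.38 times the highest ND library, the largest such margin of the 7 genes. At 1.97 ± 0.21 on the log2 scale (standard error), Mtk had the highest fold change and the smallest error of the 7, and stayed between 1.76 and 2.14 with 1 library left out. Per kb of exon Mtk came second to Drs in HSD-F1 and in ND, at 789 ± 207 CPM per kb in HSD-F1 and 202 ± 37.4 CPM per kb in ND (SD, n = 3 each). After them came CecA1, at 478 ± 268 CPM per kb in HSD-F1 and 141 ± 124 CPM per kb in ND, and then CecC, Def, CecA2 and CecB, the last at 38.6 ± 23.3 CPM per kb in HSD-F1 and 25.1 ± 16.3 CPM per kb in ND. The order of the means was the same in both groups. Neighbours in it overlapped within 1 SD of their means, apart from CecA2 and CecB in HSD-F1 and CecC and Def in ND.

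**Figure D2:**
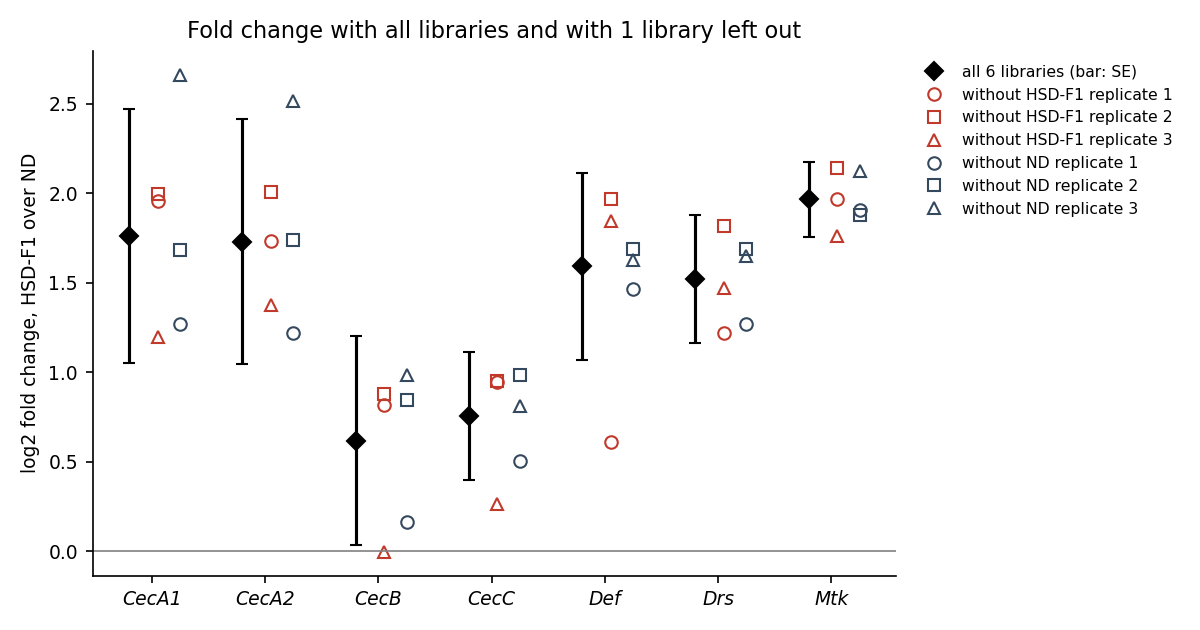
Fitted log2 fold change (HSD-F1 over ND) of each gene with all 6 libraries (diamond, bar of 1 standard error) and with 1 library left out (open markers, colour for the group and shape for the replicate left out). Mtk stayed between 1.76 and 2.14, whereas Def was 0.61 without HSD-F1 replicate 1 and CecB was -0.0020 without HSD-F1 replicate 3.

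The share of the cecropins in the summed CPM differed among the libraries of each group, over like ranges. Cecropins made up 20.1%, 32.2% and 39.0% of the sum in HSD-F1 replicates 1, 2 and 3, against 20.5%, 34.2% and 41.7% in ND replicates 1, 2 and 3. The same numbers of both groups had like shares, although neither the labels nor the study say that the numbers pair the libraries. Drs took 35.1% to 49.2% of the sum in HSD-F1 and 37.6% to 46.0% in ND, and Mtk took 19.5% to 27.1% in HSD-F1 and 13.4% to 26.6% in ND. Without Drs, the gene with the highest CPM, the ratio of the sums was 3.02.

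**Figure D3:**
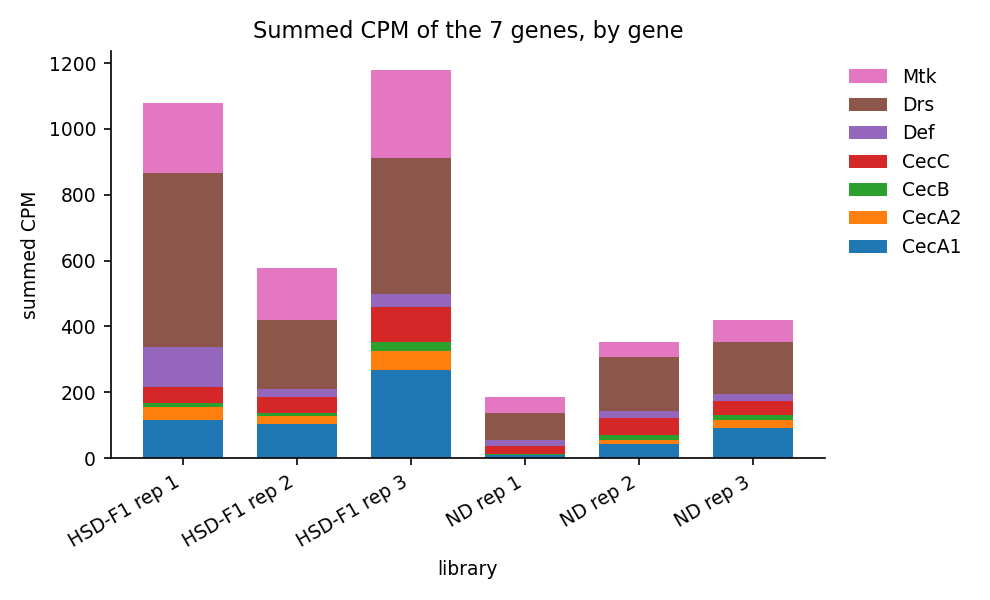
Stacked CPM of the 7 genes in each library, HSD-F1 left and ND right. The HSD-F1 sums were 577 to 1178 CPM and the ND sums 186 to 418 CPM, and Drs was the largest share in every library.

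The genes did not follow each other equally. Over the 6 libraries, Pearson's r of log2 CPM was 0.99 between CecA1 and CecA2, and 0.91 between CecB and CecC. After the group means were taken out, these were 0.97 and 0.91, and Def and Drs had 0.78. Def was apart from the cecropins by the same measure, with r from -0.06 with CecC to 0.29 with CecA2, and had 0.28 with Mtk. Drs was not apart from them, with r from 0.56 with CecC to 0.77 with CecA2. These are descriptions over 6 libraries, and they carry no p-value. Within each library all genes share its depth and RNA pool. HSD-F1 replicate 3 had the highest level of the 4 cecropins and Mtk, whereas HSD-F1 replicate 1 had the highest level of Def and Drs. ND replicate 1 was the lowest library for 6 of the 7 genes, and ND replicate 2 was the lowest for Mtk.

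**Figure D4:**
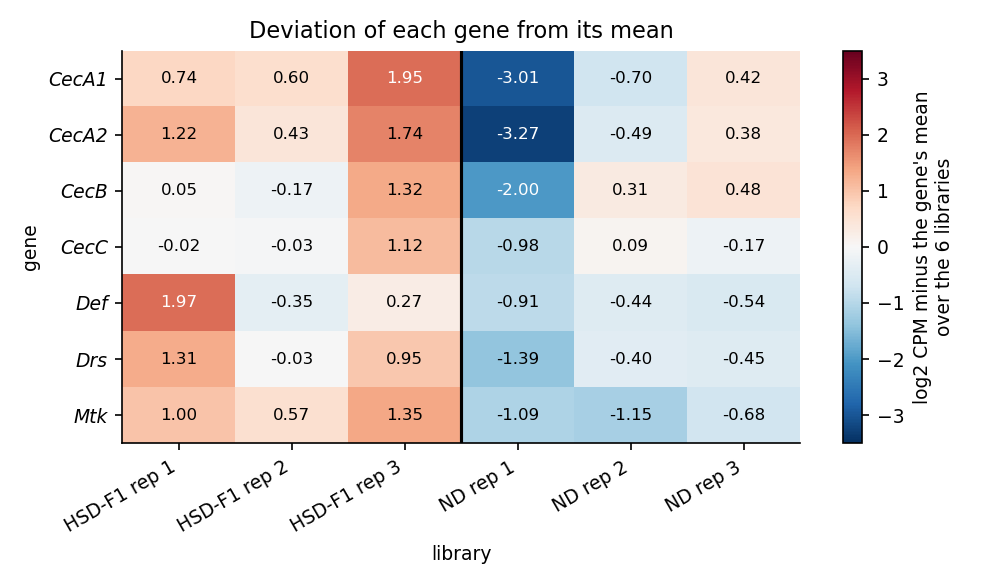
Log2 CPM of each gene minus its mean over the 6 libraries, HSD-F1 left of the line and ND right of it, with the value in each cell. ND replicate 1 was the lowest for CecA1 (-3.01) and CecA2 (-3.27), and Def was highest in HSD-F1 replicate 1 (1.97).

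The 5 other genes whose pattern over the 6 libraries was most like the mean of the 7 were CG43175, GstD10, CG4716, Caf1-55 and CHMP2B, with r of 0.98 over 6 libraries for each, among 9410 genes with a mean of at least 1 CPM. Of these CG43175 alone differed by more than 1.5-fold, at 34.8 ± 15.6 CPM in HSD-F1 and 11.8 ± 5.58 CPM in ND (SD, n = 3 each), with a log2 fold change of 1.55 (standard error 0.42, adjusted p = 0.911 in edgeR's test). Caf1-55, a histone-binding subunit of PRC2 and other chromatin complexes, had 24.0 ± 0.515 CPM in HSD-F1 and 22.8 ± 0.776 CPM in ND. Its like order of the libraries thus came with little difference in level. Caf1-55 had 486 to 624 counts in a library and GstD10 had 56 to 85, and the part of counting error in their order was not tested. The top of 9410 genes ranked over only 6 libraries has a high r by selection, so these values show no link to the 7 genes.

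Genes around the 7 were examined for a shared change of the locus. Within 10 kb, 23 other genes were tested, with a median log2 fold change of -0.02 and a range of -1.35 to 2.23. Some had few reads, such as the small nucleolar RNA genes near the cecropins, with 12 to 26 counts over the 6 libraries. The lack of a call says little for those. After adjustment 0 of the 23 genes passed in edgeR, and 1 did at an unadjusted p-value under 0.05 (0 by the same thresholds in DESeq2). That 1 gene, asRNA:CR44297 beside Def, had 3, 3 and 1 counts in HSD-F1 and 5, 8 and 7 counts in ND, and its call was lost when HSD-F1 replicate 3, ND replicate 2 or ND replicate 3 was left out. Anp, a cecropin-like peptide gene of the male reproductive tract that lies 492 bp from CecA1, had 0 or 1 counts in every library. RpS7, the ribosomal protein gene next to the cluster, had a log2 fold change of 0.04. Def lies within magu, on the opposite strand, and Mtk within Stacl, on the same strand, and in both cases 0 bp of exon were shared. Stacl had 258 to 291 CPM in HSD-F1, against 248 to 261 CPM in ND. The log2 fold changes were 0.08 for Stacl and -0.25 for magu, neither past the test.

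Drosomycin-like genes, the paralogs of Drs, had 0 genes past the thresholds among the 3 tested of 6 in edgeR's test, with 0 at an unadjusted p-value under 0.05 and 0 called by DESeq2. Drsl5 had 92.3 ± 11.4 CPM in HSD-F1 and 79.0 ± 12.1 CPM in ND, Drsl4 had 10.3 ± 1.85 CPM in HSD-F1 and 13.0 ± 1.33 CPM in ND (SD, n = 3 each), and Drsl2 had at most 5 counts in a library. Drsl3 had no counts, and 1 count of Drsl1 and 3 counts of Drsl6 were found over the 6 libraries.

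Other induced peptides were mostly higher in HSD-F1 too, with a log2 fold change above 0 in 7 of 7 attacins, diptericins and Drosocin, 11 of 12 Bomanins and 6 of 6 further Toll-response peptides. Of all 12048 genes tested, 5953 had a log2 fold change above 0, and 1.14% rose by the study's thresholds. The lists were also chosen with earlier results of these data known. Their counts and p-values are therefore description and no independent support. Of the attacins, diptericins and Drosocin, mostly Imd targets, 4 of 7 rose by the study's thresholds and 0 fell, with a median log2 fold change of 1.85, and 0 passed after adjustment in edgeR, with 4 at an unadjusted p-value under 0.05. Without ND replicate 3, 7 of 7 passed the unadjusted thresholds. Dro, the proline-rich Drosocin, rose most, to 1510, 1457 and 2197 CPM in HSD-F1 replicates, against 52.8, 102 and 391 CPM in ND replicates (log2 fold change 3.24, standard error 0.66, adjusted p = 0.638 in edgeR's test). The adjusted p of Dro was 0.0672 in DESeq2 and 0.00263 to 0.999 over all alternatives, the lowest without ND replicate 3. DptA and DptB did not meet the thresholds, with log2 fold changes of 2.12 and 1.46. Of the 12 Bomanins, short Toll-induced peptides, 5 rose and 0 fell, with a median log2 fold change of 0.67, and BomBc1 had an adjusted p-value of 0.0047 in edgeR's test (log2 fold change 1.96, standard error 0.16). Without HSD-F1 replicate 1, 8 Bomanins passed the unadjusted thresholds. BomS1 and BomS2 were also past the unadjusted thresholds, BomS2 not without HSD-F1 replicate 3, and BomS3 was not, at a log2 fold change of 0.83. Of 6 further Toll-response peptides, 3 rose and 0 fell, and 5 passed without HSD-F1 replicate 1. BaraA1 and BaraA2, near-identical copies whose separate levels are uncertain, had log2 fold changes of 1.06 and 1.07, and Dso1 had 0.39. After adjustment 0 of these 6 passed in edgeR, with 3 at an unadjusted p-value under 0.05. The adjusted p of BaraA1 and of BaraA2 was 0.911 in edgeR, against 0.00118 and 0.000771 in DESeq2, 0.0334 and 0.0253 with the replicate block, and 0.0163 for both without HSD-F1 replicate 1, and was at most 0.999 over the alternatives. A difference between these lists and the 7 genes was not tested.

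Drs and the Bomanins, both read as Toll outputs, were not highest in the same HSD-F1 library. The summed Bomanins had 1517, 3097 and 4156 CPM in HSD-F1 replicates 1, 2 and 3, against 1296, 1964 and 1698 CPM in ND replicates 1, 2 and 3. HSD-F1 replicate 1, the library with the most Drs, thus lay within the ND range of the Bomanins. The summed attacins, diptericins and Drosocin had 5783, 5030 and 7992 CPM in HSD-F1, against 450, 761 and 3346 CPM in ND, and as for the cecropins the lowest library was ND replicate 1.

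**Figure D5:**
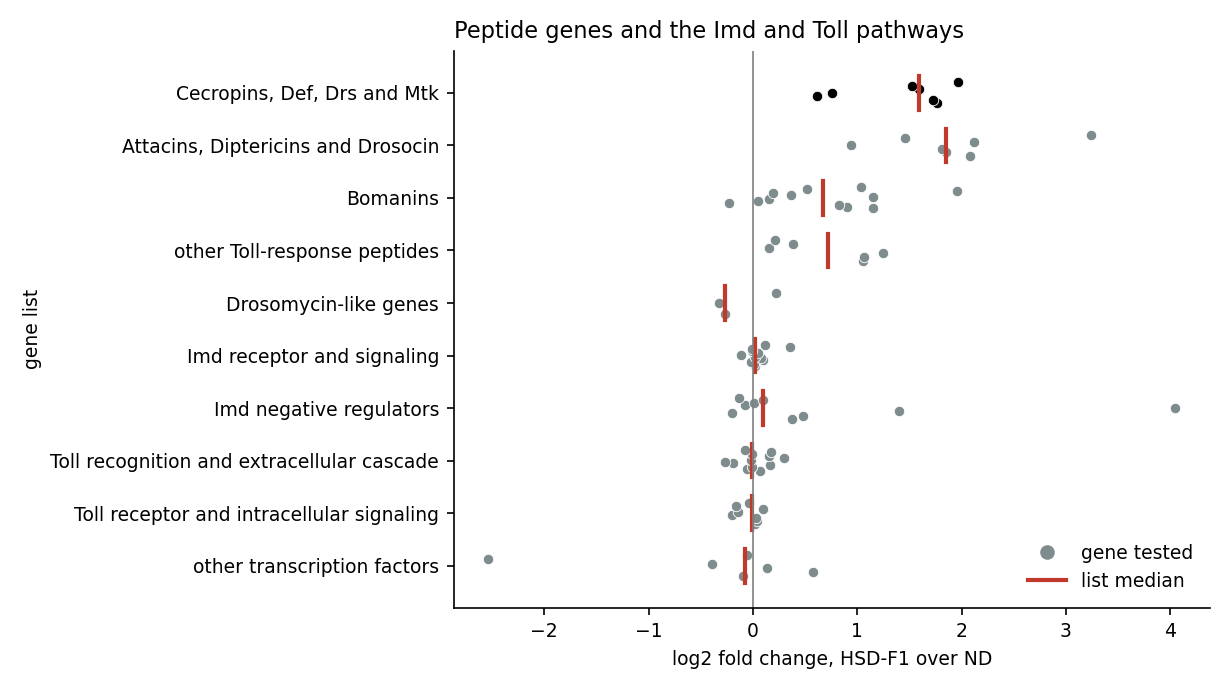
Log2 fold change (HSD-F1 over ND) of each gene tested, with 1 row per list, the 7 genes on top in black and a red line at each median. The medians of the peptide lists lay to the right of 0, except the Drosomycin-like genes at a median of -0.27. With 3 genes tested, that median was the value of Drsl2, which had at most 5 counts in a library. The medians of the recognition, signaling and transcription lists lay between -0.08 and 0.09.

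Transcript levels of the genes in the pathways that control these peptides were mostly close to even between the groups. The activity of the pathway proteins was not measured, so these levels do not show whether either pathway was more active. Over 5 lists of receptors, signaling proteins, negative regulators and transcription factors, 1 of 47 genes tested met the study's thresholds with a rise and 0 with a fall, and the median log2 fold change was 0.02. After adjustment 0 of the 47 passed in edgeR, where PGRP-SC2 did in DESeq2, and PGRP-SC2 and PGRP-LB had an unadjusted p-value under 0.05. Of the 12 Imd receptor and signaling genes 0 passed at either threshold, among them Diap2 at 0.02 and akirin at 0.11 on the log2 scale. Rel, the Imd transcription factor, had 224, 220 and 192 CPM in HSD-F1, against 127, 165 and 204 CPM in ND, with overlapping groups and a log2 fold change of 0.35 (standard error 0.16, adjusted p = 0.911 in edgeR). Of the 12 genes of Toll recognition and its extracellular cascade 0 passed, with nec, a protease inhibitor, at 0.17, PGRP-SD, a peptidoglycan receptor, at -0.05 and SPE, the protease that cleaves the Toll ligand, at 0.15. Of the 8 genes of the Toll receptor and intracellular pathway 0 passed, with cact, the inhibitor of Dif and dl, at 0.10, Pli at -0.14 and Dif at -0.04. Of 6 other transcription factors 0 passed, with Deaf1 at 0.14, srp at -0.10 and foxo at -0.06. By the unadjusted thresholds DESeq2 called 0 genes of the Imd receptor and signaling list and of either Toll list, and 1, cad, of the other transcription factors.

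The largest difference among these transcription factors was that of cad, a homeobox factor that acts on antimicrobial peptide promoters, at very low counts. It had 1, 0 and 4 counts in HSD-F1 replicates 1, 2 and 3, against 8, 1 and 24 counts in ND replicates 1, 2 and 3, and the groups overlapped. The log2 fold change of -2.54 (standard error 1.17) had an unadjusted p-value of 0.0547 and an adjusted one of 0.911 in edgeR's test. The unadjusted thresholds were met with DESeq2, without TMM, with the filter of 1 count, with the replicate block, without ND replicate 2 and without HSD-F1 replicate 3. The adjusted p was 0.390 to 1.00 over the alternatives. Without ND replicate 3, which also had the highest sum of ovary and egg markers, at 60.0 CPM, the log2 fold change was -1.28, and the part of those markers was not tested.

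The 1 gene past the thresholds was PGRP-SC2, a secreted amidase that degrades peptidoglycan and dampens Imd. It had 119, 28.0 and 73.4 CPM in HSD-F1 replicates 1, 2 and 3, against 2.52, 2.32 and 8.41 CPM in ND replicates 1, 2 and 3. The log2 fold change of 4.05 (standard error 0.64) had an unadjusted p-value of 0.000193 and an adjusted one of 0.233 in edgeR's test, against 0.000771 in DESeq2. Over all alternatives the adjusted p ran from 0.000771 to 0.999, and it was 0.0297 without ND replicate 3. Without ND replicate 3, 3 genes of the list of Imd negative regulators passed the unadjusted thresholds. Of the other 8 Imd negative regulators tested, PGRP-LB and pirk, named after their values were seen, were higher in HSD-F1 without overlap but under 1.5-fold. Of all genes tested, 6.67% separated in that direction. PGRP-LB was at 32.7 ± 2.21 CPM in HSD-F1 and 23.5 ± 6.53 CPM in ND, and pirk at 12.4 ± 0.328 CPM in HSD-F1 and 9.61 ± 2.199 CPM in ND (SD, n = 3 each). PGRP-LF and casp had log2 fold changes of -0.20 and -0.08.

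Markers of the tissues that make these peptides were compared by their summed level. The 7 head fat body markers had 64459 to 82803 CPM in HSD-F1 and 65495 to 80836 CPM in ND, most of it from Yp3, Yp2 and Yp1. The sum therefore says little about the other markers of this list. Of the 7 markers 0 had a log2 fold change above 0, and the median was -0.11. The marker to (takeout) fell by the unadjusted thresholds, with 78.4, 79.3 and 59.8 CPM in HSD-F1 and 158, 113 and 76.3 CPM in ND. The 6 hemocyte markers, with Hml, Sr-CI and Pxn the most abundant, had 350 to 452 CPM in HSD-F1 and 353 to 403 CPM in ND, and 0 of the 6 passed the test. Head genes were present in every library, with a sum of 25571 to 34900 CPM for 9 markers in HSD-F1 and 28670 to 31079 CPM in ND, most of it ninaE, the main rhodopsin. The 13 ovary and egg markers, led by Cp36, Cp38 and Vm34Ca, had 2.84 to 13.4 CPM in HSD-F1 and 2.60 to 60.0 CPM in ND, where ND replicate 3 held the highest value. The 6 male markers had 11.1 to 14.3 CPM in HSD-F1 and 11.4 to 15.5 CPM in ND, nearly all of it lncRNA:roX1, and Acp26Aa and SP were at 0 counts. The part of these cells in the levels of the 7 genes was not tested.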

How the data were processed

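Head RNA of 3 HSD-F1 and 3 ND replicates was analysed. Each library's deposited file gives raw counts per gene, which the authors made from uniquely mapped read pairs, without normalization. The submitters' processing notes name HISAT2 2.0.4, Bowtie2 2.2.5, RSEM 1.2.12 and DESeq2 1.4.5 without roles, and the counting program and the use of strand are not given in the sources used here. Symbols were matched by locus tag to RefSeq's gene table of Release 6 (17503 of 17545 genes).

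Genes that reached 10 counts in all 6 libraries together were scaled with TMM and tested with edgeR 4.0.16 (glmQLFit and glmQLFTest, R 4.3.3), group as the only term, with Benjamini-Hochberg adjustment over the 12048 genes. The test was checked on simulated counts. Fold changes are on the log2 scale. The 7 genes and the lists were chosen with earlier results of these data known. Named besides the 7 were up to 3 genes per list with the highest CPM per kb, any list gene with an adjusted p-value under 0.05, neighbours within 10 kb, and the 5 genes of most like pattern (prior of 0.5 counts). PGRP-LB, pirk, cad, to, deltaTry, Acp26Aa, SP, Drsl1, Drsl3 and Drsl6 fall outside this rule and were chosen after their values were seen. No library pair agreed within counting noise. The study calls the replicates biological, but the labels do not say that they are separate cultures. The p-values therefore measure the spread between these libraries. The largest counting error of any of the 7 genes was 14.9% (45 counts), below the spread between replicates. Alternatives were other scalings and filters, DESeq2 1.42.0, a replicate block, and leaving out libraries.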

Additional observations from a re-analysis of the deposited data

How the results depend on the processing

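The 7 genes kept their direction under every scaling, filter, test and left-out library run, except CecB, whose log2 fold change was -0.0020 without HSD-F1 replicate 3 and up to 0.98 with another library left out. Of the 91 values of single genes under other settings, 90 moved by less than the spread between replicates (pooled SD of log2 CPM). Def without HSD-F1 replicate 1 (0.61) moved by more. With 3 libraries a group, leaving 1 out can rarely move a mean by that much, so this count does not measure stability. The move of CecB from 0.62 to -0.0020 was among the 90. The number of the 7 genes past the study's thresholds was 5 with all libraries, 3 with DESeq2 and without HSD-F1 replicate 3, 4 without ND replicate 2, and 6, CecC included, with the filter of 1 count, with the replicate block and without HSD-F1 replicate 2. It was 5 in the others. Mtk kept its adjusted call in 9 of 13 other settings, and lost it without ND replicate 1, ND replicate 2, HSD-F1 replicate 1 or HSD-F1 replicate 3.

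Across all genes, 218 passed the unadjusted thresholds, against 119 with at least 10 counts in every library, 140 with DESeq2, 611 without a fold-change threshold, and 203 to 252 with 1 library left out. At the adjusted threshold 8 passed, against 28 with DESeq2, 38 with the replicate block, 4 to 21 with 1 library left out, the most without ND replicate 3, and 18 with replicates 1 and 2 only, a setting added after seeing the data. Among the neighbours 1 gene passed, against 0 with at least 10 counts in every library, with DESeq2 and with replicates 1 and 2 only, and 0 to 1 with 1 library left out. Without TMM, 127 of 218 genes passed with a rise, against 137 of 218.

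Same-numbered libraries had correlations of their deviations from the group means of 0.37, -0.04 and 0.39 for replicates 1, 2 and 3. Differently numbered libraries had -0.46 to 0.15, below the values of numbers 1 and 3. The labels name no pairing, so the main fit did not pair the samples, and whether the numbers mark a batch was not tested. With the replicate block the summed log2 ratio of the 7 genes was 1.58, against 1.57, and the median log2 fold change was 1.48, against 1.59. BomS2 did not pass with replicates 1 and 2 only, whereas PGRP-LB and Rel then did. For the 7 genes the spread over 3 replicates a group was larger than the counting error.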
